A study of Mus musculus with 4 samples.

Results

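The thiazide-sensitive sodium chloride cotransporter and the kinase pathway that controls it were followed through the mouse kidney as a set of 9 named genes. They are *Slc12a3*, which encodes the cotransporter, the kinases *Wnk1*, *Wnk4*, *Stk39* and *Oxsr1*, the ubiquitin ligase parts *Klhl3* and *Cul3*, and the basolateral potassium channel subunits *Kcnj10* and *Kcnj16*. The genes were chosen by name, from knowledge of the pathway, and 8 of the 9 had a row among the 19632 gene rows of the table of cluster averages. *Oxsr1* had none and was not analysed here.

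Single nucleus RNA sequencing had been carried out on kidney cortex of 4 male mice of mixed strain, with 1 mouse in each condition. The control mouse carried the TRE-hKLF6 transgene alone, in which the human transcription factor KLF6 lies behind a tetracycline response element. The hKLF6OE mouse carried CAG-rtTA and TRE-hKLF6 together, so that a ubiquitous promoter drives the transactivator and overexpression is not limited to any tubule segment. A second mouse of each genotype received aristolochic acid I (AAI), a nephrotoxin of the proximal tubule, at 2 mg/kg and was collected 24 hours later. By the study's methods, nuclei and libraries of the 4 mice were prepared together, and mice of both genotypes were fed doxycycline before the injection, which induces the transgene only where rtTA is present. The human transgene has no row of its own. The row for mouse *Klf6* in DCT was 0.134 in control, 0.329 in control with AAI, 0.156 in hKLF6OE and 0.312 in hKLF6OE with AAI, so it was higher in both AAI-treated mice and does not check the transgene. No test between conditions was made. A model in which genotype and AAI add up would leave 1 residual degree of freedom, and none was fitted. Differences between conditions are differences between single mice and have no replicate check.

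Sodium and chloride enter cells of the distal convoluted tubule (DCT) from the urine through SLC12A3, the target of thiazide diuretics. WNK kinases phosphorylate and activate the kinases SPAK (*Stk39*) and OSR1 (*Oxsr1*), which in turn phosphorylate and activate the cotransporter. KLHL3 is the adaptor that brings WNK kinases to the ubiquitin ligase built on CUL3, which marks them for degradation. Channels of KCNJ10 and KCNJ16 subunits set the basolateral membrane potential, and through it intracellular chloride, which inhibits WNK kinases. Mutations in *WNK1*, *WNK4*, *KLHL3* and *CUL3* cause familial hyperkalemic hypertension, and loss of SLC12A3 causes Gitelman syndrome.

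A level here is the mean, over the nuclei of 1 cluster in 1 mouse, of counts scaled to 10000 for each nucleus, on a linear scale. The table holds 23 clusters and 92 columns. The number of nuclei behind a column and its depth are not given, so counting error is unknown. DCT was named partly from *Slc12a3* itself, so the height of that gene there is no finding. Of the other DCT markers, *Trpm6* (18.3 as a mean of the 4 mice) and *Pvalb* (0.750) were highest in DCT, while *Egf* was highest in the ascending limb cluster LH-AL-2, at 132 against 51.7 in DCT. Of 4 markers of the connecting tubule, *Slc8a1* and *Trpv5* were highest in the cluster named for it (CNT), *Calb1* was nearly equal there (13.7) and in DCT (13.1), and *Scnn1b* was higher in principal cells (8.66) than in CNT (8.02). The cluster named DCT_CNT also held proximal tubule transcripts, with *Slc34a1* at 28.0 against 6.73 in DCT and *Lrp2* at 11.404 against 2.28. In DCT, between 25.4% and 28.1% of genes were at 0 in each of the 4 mice.

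The start sites of the members are described first, since KLF6 belongs to a family of factors that bind GC-rich boxes. Sequences are the 250 bases before the RefSeq start site in GRCm38.p6, and the letters GGGCGG were searched on both strands. Over 32851 RefSeq promoters of the table, in windows that also hold the first bases of the transcript, 32.7% hold these letters. *Slc12a3* and *Klhl3* are shown as the members with the strongest preference for DCT, and *Wnk1* as one of the kinases, with *Stk39*, that were lower in DCT of hKLF6OE. Capitals mark GGGCGG or its reverse complement, and each sequence reads toward its start site.
Slc12a3: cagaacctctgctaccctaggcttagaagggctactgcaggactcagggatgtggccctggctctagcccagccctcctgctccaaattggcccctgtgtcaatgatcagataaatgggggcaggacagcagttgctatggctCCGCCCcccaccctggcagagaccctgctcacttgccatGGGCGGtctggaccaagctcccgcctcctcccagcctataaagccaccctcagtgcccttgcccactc
Wnk1: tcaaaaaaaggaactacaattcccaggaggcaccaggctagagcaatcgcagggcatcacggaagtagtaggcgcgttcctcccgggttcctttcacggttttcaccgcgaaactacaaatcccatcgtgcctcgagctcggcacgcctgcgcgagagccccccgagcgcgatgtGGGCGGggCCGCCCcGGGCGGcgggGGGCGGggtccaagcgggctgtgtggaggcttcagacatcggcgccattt
Klhl3: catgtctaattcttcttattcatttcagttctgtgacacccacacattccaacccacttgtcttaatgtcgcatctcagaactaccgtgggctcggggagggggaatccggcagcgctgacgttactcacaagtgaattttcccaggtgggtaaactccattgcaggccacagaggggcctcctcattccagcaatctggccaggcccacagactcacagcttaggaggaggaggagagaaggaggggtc
The *Slc12a3* window (chr8:94328958-94329207, plus strand) held 2 matches. The *Wnk1* window (chr6:120038656-120038905, minus strand), which lies before the start of the long form, held 4 within a short stretch. The *Klhl3* window (chr13:58113648-58113897, minus strand) held 0. Windows of the other members held 3 matches in *Wnk4*, 4 in *Stk39*, 3 in *Cul3* and 2 in *Kcnj10*, 1 of the 4 start sites of *Kcnj16* held 1, and the window of *Oxsr1* held 1. A match describes the letters only, and binding was not measured in these data. The genes themselves span 37.0 kb (*Slc12a3*), 115 kb (*Wnk1*), 16.8 kb (*Wnk4*), 262 kb (*Stk39*), 113 kb (*Klhl3*), 75.6 kb (*Cul3*), 32.9 kb (*Kcnj10*) and 59.9 kb (*Kcnj16*) in the GENCODE annotation of GRCm38. *Wnk4* overlaps the antisense gene *Gm11615*, and *Wnk1* a pseudogene and a miRNA. *Wnk1* was counted as a whole gene, so that the long form and the kinase-deficient form of the distal tubule, which starts at an internal promoter, cannot be told apart.

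Of the 8 members, 4 had their highest mean level in DCT. These were *Slc12a3*, *Wnk1*, *Wnk4* and *Klhl3*, each in DCT in 4 of 4 mice. Of 5069 genes with a mean of at least 1 in some cluster, 2.56% were highest in DCT. DCT was number 3 in order for *Stk39* and *Kcnj10*, and number 7 for *Cul3* and *Kcnj16*. The clusters were made from these same values, so the order of clusters is a description.

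**Figure D1:**
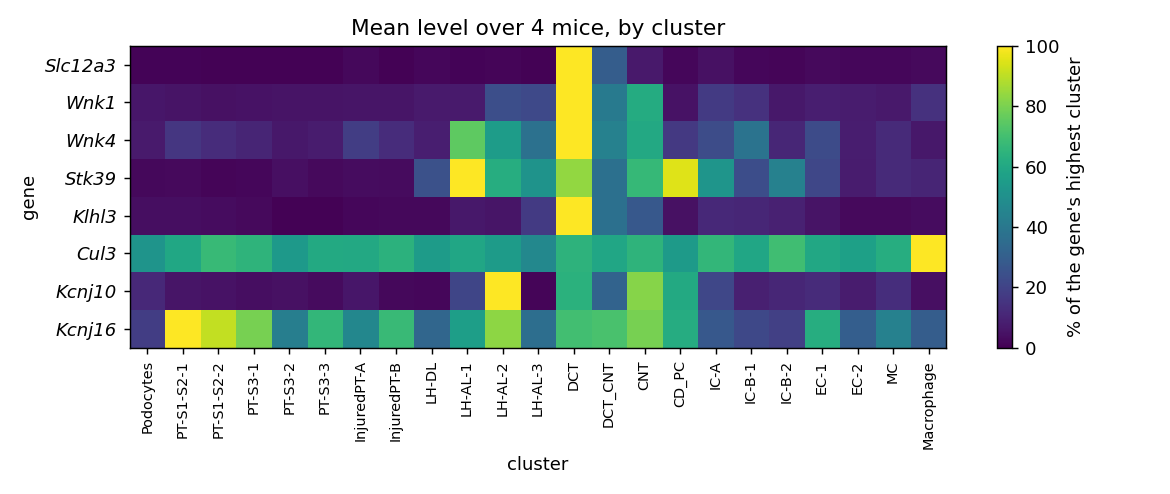
Mean level over 4 mice of each member (rows) in each of 23 clusters (columns), as a percent of the gene's own highest cluster. Slc12a3, Wnk1, Wnk4 and Klhl3 are highest in DCT, Stk39 in LH-AL-1 and Kcnj10 in LH-AL-2, Kcnj16 is spread over proximal and distal clusters, and Cul3 lies within a 2.13-fold range everywhere.

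*Slc12a3* was 176 in control, 162 in control with AAI, 177 in hKLF6OE and 154 in hKLF6OE with AAI in the DCT cluster. It was next highest in DCT_CNT, at 50.8, 52.6, 53.1 and 42.1 in the same order, and the ranges of these clusters over the 4 mice did not overlap. CNT followed at 8.33, 14.4, 11.8 and 11.37, and overlapped in range with the type A intercalated cluster IC-A. The lowest mean was 0.860 in the proximal cluster PT-S3-3, so that DCT stood 195-fold above it. The fold of the top cluster over the median cluster was 62.5 for *Slc12a3*, and 7.32% of the 5069 genes had a larger one. In IC-A the level was 11.02 and 11.04 in the mice of control genotype and 3.82 and 4.94 in the hKLF6OE mice, without overlap. Other distal transcripts moved with it there. The 4 DCT markers, *Slc12a3* among them, summed to 16.99 and 16.94 in the control genotype and to 5.96 and 7.16 in hKLF6OE, with none at 0, and *Trpm6* was 1.43, 1.46, 0.151 and 0.458 in control, control with AAI, hKLF6OE and hKLF6OE with AAI. Their part in the *Slc12a3* value was not tested.

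The pattern of *Slc12a3* over the 23 clusters was most like that of *Trpm6*, the magnesium channel of the DCT, with a Pearson r of 0.97 for log2 means. *Tsc22d1* (r = 0.91), *Sall3* (0.89), *Cnnm2* (0.89) and *Mapk10* (0.88) followed. Among the members, *Slc12a3* was closest to *Klhl3* (r = 0.85) and *Wnk1* (0.81), and far from *Cul3* (0.19) and *Kcnj16* (0.13). These values share libraries and clusters and are descriptions over 23 points.

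*Wnk1*, the kinase at the head of the cascade, was 82.7 in control, 80.1 in control with AAI, 68.4 in hKLF6OE and 65.4 in hKLF6OE with AAI in the DCT cluster. CNT ranked second at 43.9, 37.5, 47.1 and 54.2, below DCT in every mouse, and DCT_CNT came next with a mean of 30.3. Unlike *Slc12a3*, it was also prominent in some of the ascending limb clusters. LH-AL-2 had a mean *Wnk1* level of 17.8, and held 1.40% of the DCT level of *Slc12a3*. LH-AL-3 held 21.97% of the DCT level of *Wnk1* and 0.554% of that of *Slc12a3*. *Wnk1* ranged there from 6.38 to 20.8 over the mice, and between 60.5% and 63.4% of genes were at 0. LH-AL-1, the cluster with the highest *Slc12a1*, had a mean *Wnk1* level of 5.22. Principal cells (CD_PC), which lie beyond CNT, were near the bottom of the order, at 2.65, 3.56, 3.71 and 4.54. The genes most like *Wnk1* over clusters were *Sall3* (r = 0.92), *Klhl3* (0.90) and *Nup93* (0.89).

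*Wnk4*, the second WNK kinase, varied little within DCT, at 5.02, 5.07, 4.64 and 4.61 in control, control with AAI, hKLF6OE and hKLF6OE with AAI. These values lay above all those of LH-AL-1, which ranked second with a mean of 3.63 and a range of 3.12 to 4.18. CNT followed at 2.91 and LH-AL-2 at 2.67, with overlapping ranges. The other 19 clusters had means of 2.12 or less, down to 0.304 in PT-S3-2. *Sv2a* (r = 0.92), *Abhd6* (0.91) and *Top3b* (0.90) were most like it.

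*Stk39*, which encodes SPAK, reached its highest mean outside DCT. In LH-AL-1 it was 9.67, 9.56, 9.59 and 9.95, nearly equal in the 4 mice. CD_PC (9.22) and DCT (8.10) followed, and the ranges of all these clusters overlapped, so their order is not resolved. In control with AAI the top cluster was DCT. *Stk39* had a mean of 0.120 in the proximal cluster PT-S1-S2-2, and the fold from top to bottom was 80.7. Its pattern was most like that of *Sim1* (r = 0.98), *Prdm16* (0.97) and *Ppp2r2b* (0.97).

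*Klhl3*, the adaptor for WNK degradation, had after *Slc12a3* the sharpest preference for DCT among the members, with a top over median fold of 27.0. In DCT it was 29.6, 18.5, 22.2 and 18.3 in control, control with AAI, hKLF6OE and hKLF6OE with AAI. DCT_CNT held 9.43, 7.66, 9.54 and 6.22, and CNT a mean of 6.06. In the proximal cluster PT-S3-2 the mean was 0.144. *Sall3* (r = 0.92), *Cwh43* (0.91) and *Yap1* (0.90) were most like it.

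*Cul3*, the scaffold of the ligase, was present in every cluster at similar levels. It ranged from a mean of 1.08 in LH-AL-3 to 2.30 in macrophages, and 22 of 23 clusters, the top included, reached 50% of the highest. In DCT it was 1.49, 1.69, 1.10 and 1.65 in control, control with AAI, hKLF6OE and hKLF6OE with AAI. The fold over the median cluster was 1.66, and 80.5% of the 5069 genes had a larger one. The scaffold, which serves many adaptors, and the adaptor *Klhl3* thus differed widely in their spread over clusters.

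The potassium channel subunits differed from each other. *Kcnj10* was highest in LH-AL-2 (mean 1.54), followed by CNT (1.26), DCT (0.984) and CD_PC (0.934), with overlapping ranges between neighbours. In DCT it was 1.03, 0.988, 1.11 and 0.811 in control, control with AAI, hKLF6OE and hKLF6OE with AAI, and it was at 0 in 14 of the 92 columns. *Kcnj16*, which pairs with KCNJ10 distally and with other subunits in the proximal tubule, was highest in the proximal cluster PT-S1-S2-1, at 8.85, 12.5, 7.19 and 6.20 in the same order. PT-S1-S2-2 (7.88), LH-AL-2 (7.22), PT-S3-1 (6.92) and CNT (6.91) came next, DCT stood at 6.07, and podocytes were lowest at 1.58. Over clusters, *Kcnj10* was most like *Greb1* (r = 0.91), *Tmem52b* (0.89) and *Aktip* (0.84), and *Kcnj16* most like *Abhd17c* (0.90), *Kcnj2* (0.88) and *Osbpl6* (0.81). The remaining likeness was that of *Cul3* with *Trpc4ap* (r = 0.84), *Myo9b* (0.83) and *Mindy3* (0.83).

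Nuclear counts include introns, and long genes can collect more of them, so members were compared with each other per kb of gene span. On this scale the mean DCT level was 4.52 per kb for *Slc12a3*, 0.646 for *Wnk1*, 0.287 for *Wnk4*, 0.195 for *Klhl3* and 0.101 for *Kcnj16*. *Stk39* (0.0309), *Kcnj10* (0.0299) and *Cul3* (0.0196) were lowest. *Slc12a3* thus stood above all the other members per kb. That counts rise in proportion to span was not tested, and the order of members depends on it. Before scaling, *Stk39* (8.10) lay above *Kcnj16* (6.07) in DCT.

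The next question was how the members differed with AAI in DCT, a segment that is not the toxin's main target. Differences were taken between log2(level + 1) of the mice, among genes of which the larger level was at least 0.5, and a difference of 0.2 or more was counted. *Stk39* and *Kcnj16* were higher and *Klhl3* was lower with AAI in both genotypes, which rest on separate pairs of mice. Of 3747 genes compared in both pairs, 13.9% passed in the same direction in both, 9.10% higher and 4.83% lower, beside 3 of the 8 members. With the median of all genes subtracted, 2 remained, since *Stk39* then stood at 0.19 in hKLF6OE. Without centring, among genes with a level of at least 2, 28.8% of 830 passed in both, beside 3 of the 6 members at that level. With a pseudocount of 0.1 the share was 30.7%, beside the same 3 members. The counts are small and the choice of pathway was made with these data known.

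*Kcnj16* in DCT was 4.93 in control and 6.66 in control with AAI, and 4.53 in hKLF6OE and 8.17 in hKLF6OE with AAI. Both treated mice lay above both untreated mice. The log2 differences were 0.37 and 0.73, above 96.1% and 99.6% of the genes compared in DCT. *Kcnj16* was also higher with AAI in both genotypes in CNT (5.07 to 7.83 and 5.23 to 9.52) and in LH-AL-1 (3.91 to 5.16 and 3.93 to 6.45), where 9.43% and 6.83% of genes were higher in both. It was lower in both genotypes in PT-S3-3, from 6.87 to 5.50 and from 6.42 to 4.27, where 433 of 3954 genes were lower in both. Proximal markers in DCT were lower in sum with AAI. The 5 proximal markers, none of them at 0, summed to 15.8 and 15.3 in DCT of the untreated mice and to 11.399 and 10.7 in that of the treated mice, with 3 lower and 1 higher in both genotypes. In hKLF6OE with AAI, *Kcnj16* was higher in DCT (8.17) than in PT-S1-S2-1 (6.20). In control with AAI it was lower in DCT (6.66) than in PT-S1-S2-1 (12.5). The part of proximal transcripts in the DCT value of *Kcnj16* was not tested. In DCT and CNT the partner *Kcnj10* was not higher with AAI. Its log2 differences in DCT were -0.03 and -0.22, and in CNT it was lower with AAI in both genotypes, from 1.45 to 1.05 and from 1.45 to 1.09.

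*Stk39* in DCT was 7.83 in control and 9.89 in control with AAI, and 6.59 in hKLF6OE and 8.11 in hKLF6OE with AAI, with log2 differences of 0.30 and 0.26. Both AAI-treated mice lay above both untreated mice. The same held in CNT, at 5.88 to 7.60 and 5.26 to 7.26, with differences of 0.32 and 0.40. Of 15 clusters compared, *Stk39* was also higher with AAI in both genotypes in IC-A (4.15 to 6.44 and 4.41 to 5.28) and IC-B-2. It was lower in both in macrophages and LH-AL-3. In LH-AL-1, where it was highest, the differences were -0.02 and 0.05.

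*Klhl3* in DCT was 29.6 in control and 18.5 in control with AAI, and 22.2 in hKLF6OE and 18.3 in hKLF6OE with AAI. Both treated mice lay below both untreated mice, and the untreated mice differed from each other by more than the treated mice did. The log2 differences were -0.65 and -0.27, and 0.715% and 11.7% of the genes compared had a lower value. DCT_CNT showed lower levels with AAI as well, with differences of -0.27 and -0.54, where 5.94% of genes were lower in both. In CNT the signs differed, at -0.35 and 0.18.

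*Slc12a3* in DCT was lower with AAI by small amounts, with differences of -0.12 in control and -0.21 in hKLF6OE. *Wnk1* (-0.05 and -0.06) and *Wnk4* (0.01 and -0.01) were nearly level. *Cul3* was 0.12 in control and 0.34 in hKLF6OE on the same scale. In all, 3 of 8 members passed in control, 2 higher and 1 lower, where 30.0% of 4056 genes passed, 730 higher and 488 lower. In hKLF6OE 6 of 8 passed, 3 in each direction, where 42.4% of 4017 genes passed, 26.2% higher and 16.2% lower. The median difference of all genes was 0.03 in control and 0.08 in hKLF6OE. With this median subtracted, the control pair had 563 higher against 640 lower genes and the hKLF6OE pair 596 against 890. Among genes with a level of at least 2, 45.3% and 64.2% passed, beside 3 and 4 of the 6 members at that level. Across the wider set of clusters, *Wnk1* was higher with AAI in both genotypes in 8 of 23 clusters and lower in none, and those 8 did not include DCT, DCT_CNT or CNT. They were PT-S3-3, InjuredPT-B, CD_PC, MC, IC-A, macrophages, LH-DL and LH-AL-3. Of 1782 genes compared in all 23 clusters, 8.87% were higher in both genotypes in 8 clusters or more. In the columns of macrophages, LH-DL and LH-AL-3, between 38.3% and 63.4% of genes were at 0. In InjuredPT-B 51.3% and 55.7% were at 0 in untreated control and hKLF6OE, against 27.0% and 29.7% with AAI. By the study's account, the injured proximal clusters came almost only from AAI-treated mice.

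**Figure D2:**
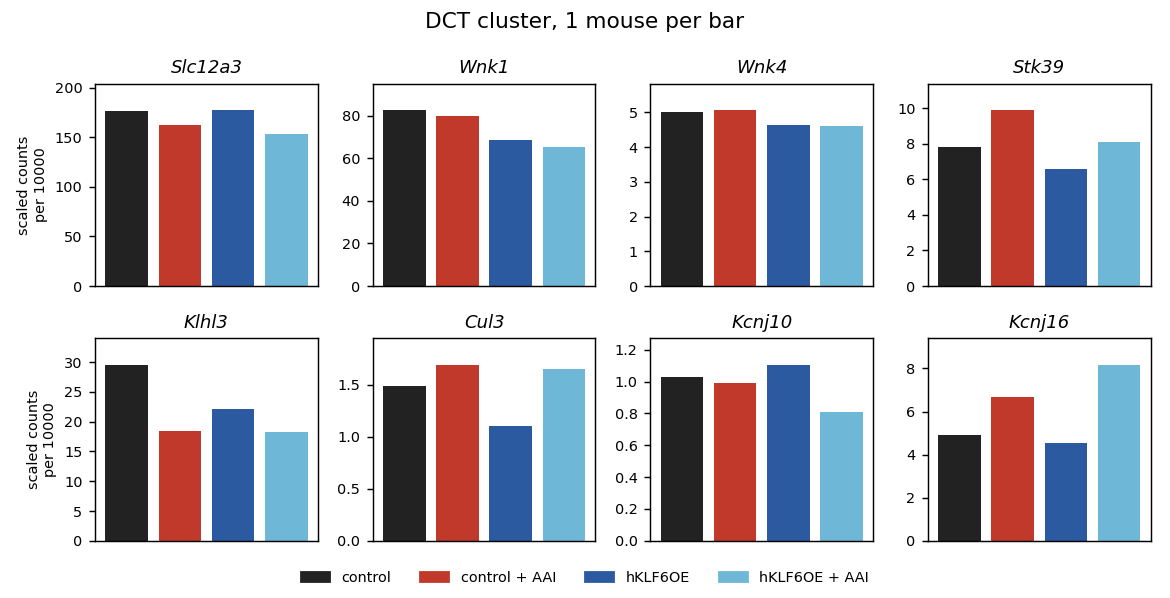
Level of each member in the DCT cluster, in counts scaled to 10000, with 1 bar per mouse and each axis starting at 0. Stk39 and Kcnj16 are higher in both AAI-treated mice, Klhl3 is highest in the control mouse at 29.6, and Wnk1 is lower in both hKLF6OE mice.

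**Figure D3:**
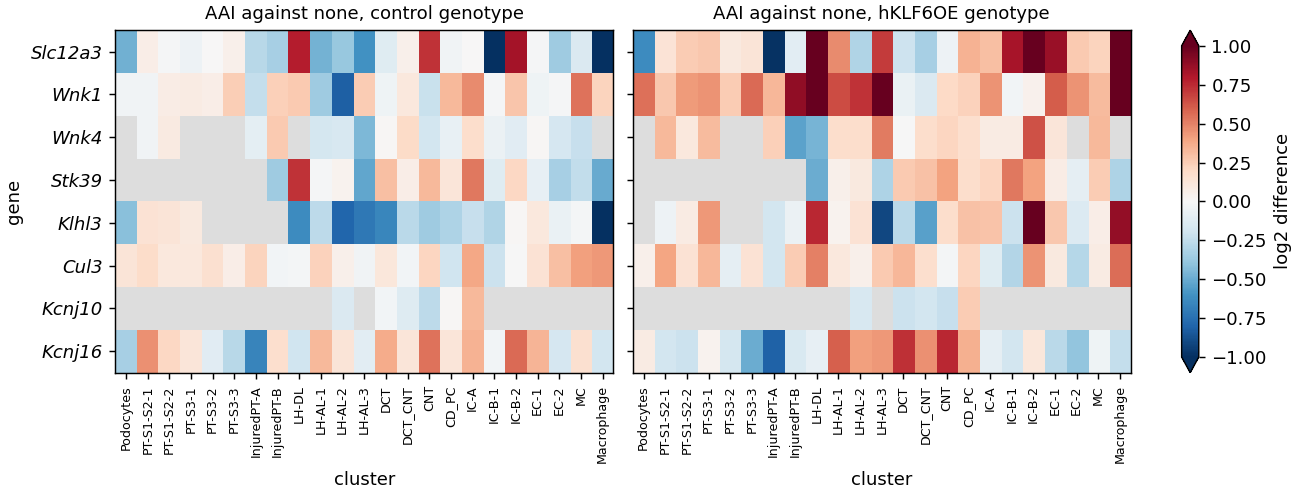
Difference of log2(level + 1) with AAI against none for each member (rows) and cluster (columns), in the control genotype (left) and hKLF6OE (right), with 1 mouse per condition. Red is higher with AAI, blue lower, grey marks pairs with both levels under 0.5, and colours stop at 1 in either direction. Kcnj16 is higher in DCT, CNT and LH-AL-1 and lower in PT-S3-3 and InjuredPT-A in both panels. In InjuredPT-A 62.6% and 40.8% of genes were at 0 in untreated control and hKLF6OE, against 22.5% and 22.2% with AAI.

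Overexpression of hKLF6 was then compared with control in the same AAI state. *Wnk1* and *Stk39* were lower in DCT of hKLF6OE in both states, again from separate pairs of mice. *Wnk1* was 68.4 against 82.7 without AAI and 65.4 against 80.1 with AAI, with differences of -0.27 and -0.29, and both hKLF6OE mice lay below both mice of control genotype. *Stk39* was 6.59 against 7.83 and 8.11 against 9.89, with differences of -0.22 and -0.26, and here the genotypes overlapped. Of 3593 genes compared in both states, 2.81% passed in both, 2.28% lower and 0.529% higher in hKLF6OE, beside 2 and 0 of the 8 members. With the medians subtracted *Wnk1* alone remained, since *Stk39* then stood at -0.17 without AAI. At a threshold of 0.5 no member passed. In macrophages *Wnk1* was lower in hKLF6OE in both states, at 4.61 against 12.4 and 10.5 against 14.7. Between 38.3% and 63.4% of genes were at 0 in the macrophage columns. The lower *Wnk1* was seen in IC-A too (9.34 against 11.37 and 13.1 against 16.2), where 7.92% of genes were lower in both. Markers of DCT were lower there in hKLF6OE, as given for *Slc12a3*, and the 4 CNT markers, none at 0, summed to 31.9 and 63.3 in the control genotype and 13.4 and 36.99 in hKLF6OE. Their part in the *Wnk1* value was not tested. In CNT *Wnk1* was 47.1 against 43.9 and 54.2 against 37.5, and in DCT_CNT the differences were 0.13 and -0.12. In CD_PC, where it was scarce, *Wnk1* was higher in hKLF6OE in both states, at 3.71 against 2.65 and 4.54 against 3.56. In that cluster 4.25% of genes were higher in both. Without AAI, *Wnk1* was lower in hKLF6OE by more than in DCT in several other clusters. They were LH-AL-2 (-1.43), LH-AL-3 (-1.31), macrophages (-1.26), LH-AL-1 (-0.83), EC-1 (-0.52), EC-2 (-0.48), podocytes (-0.46) and InjuredPT-B (-0.33). With AAI, only macrophages among these were lower past 0.2. In MC it was higher by 0.27 without AAI. In the unweighted mean of all clusters the differences were -0.29 without and 0.022 with AAI.

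*Slc12a3* in DCT differed little between genotypes, by 0.01 without AAI and -0.08 with AAI. *Wnk4* differed by -0.09 and -0.11. *Klhl3* was lower in hKLF6OE without AAI, by -0.40, and level with AAI, at -0.01, and *Cul3* did likewise at -0.24 and -0.02. *Kcnj10* differed by 0.05 and -0.13. *Kcnj16* differed by -0.10 without AAI and 0.26 with AAI. Without AAI, 4 of 8 members passed and all 4 were lower, where 26.8% of 4041 genes passed, 16.7% lower and 10.1% higher. With AAI, 3 of 8 passed, 2 lower and 1 higher, where 18.8% of 3878 genes did, 465 lower and 263 higher, and the medians of all genes were -0.04 and -0.01. After centring, 583 genes were higher and 401 lower without AAI, and 2 members passed, *Wnk1* and *Klhl3*. The comparisons of genotype and of AAI share mice, so a high value in the untreated control mouse, as for *Klhl3*, lowers both.

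**Figure D4:**
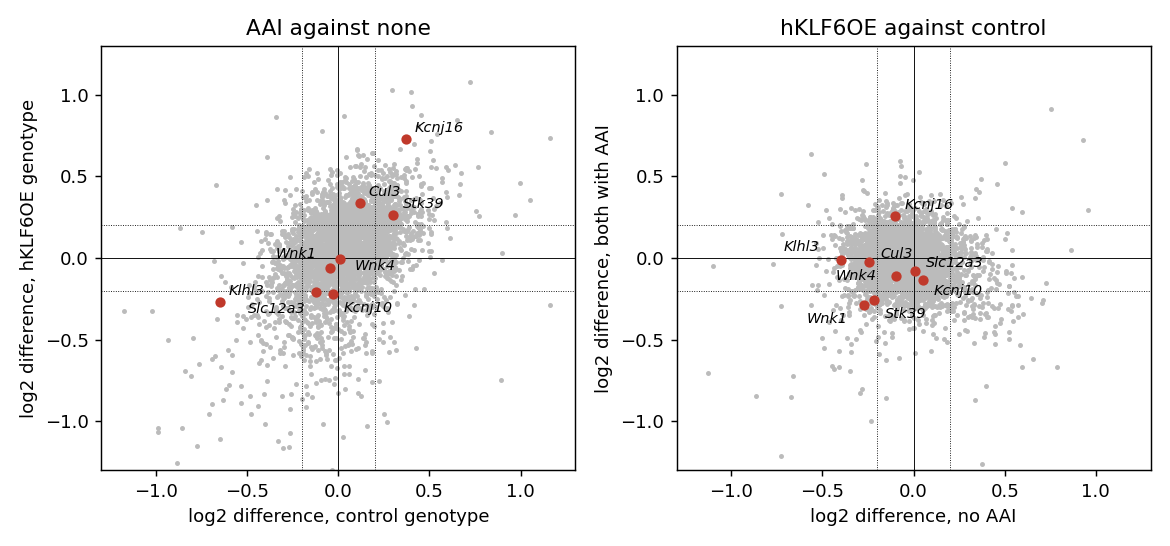
Differences of log2(level + 1) in the DCT cluster for all genes compared in both pairs of mice (grey points) and the 8 members (red). The left panel gives AAI against none in control (horizontal) and hKLF6OE (vertical) for 3747 genes, the right panel hKLF6OE against control without AAI (horizontal) and with AAI (vertical) for 3593 genes. Dotted lines mark the threshold of 0.2, and 15 genes on the left and 1 on the right lie outside the axes. Kcnj16 stands at 0.37 and 0.73 on the left, and Wnk1 at -0.27 and -0.29 on the right.

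*Kcnj16* was also compared between genotypes in its highest cluster, PT-S1-S2-1. There it was 7.19 in hKLF6OE against 8.85 in control, and 6.20 in hKLF6OE with AAI against 12.5 in control with AAI. Both hKLF6OE mice lay below both control mice, with differences of -0.27 and -0.91, where 2.46% of genes were lower in both states. With AAI the difference was 0.46 in the control genotype and -0.19 in hKLF6OE.

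**Figure D5:**
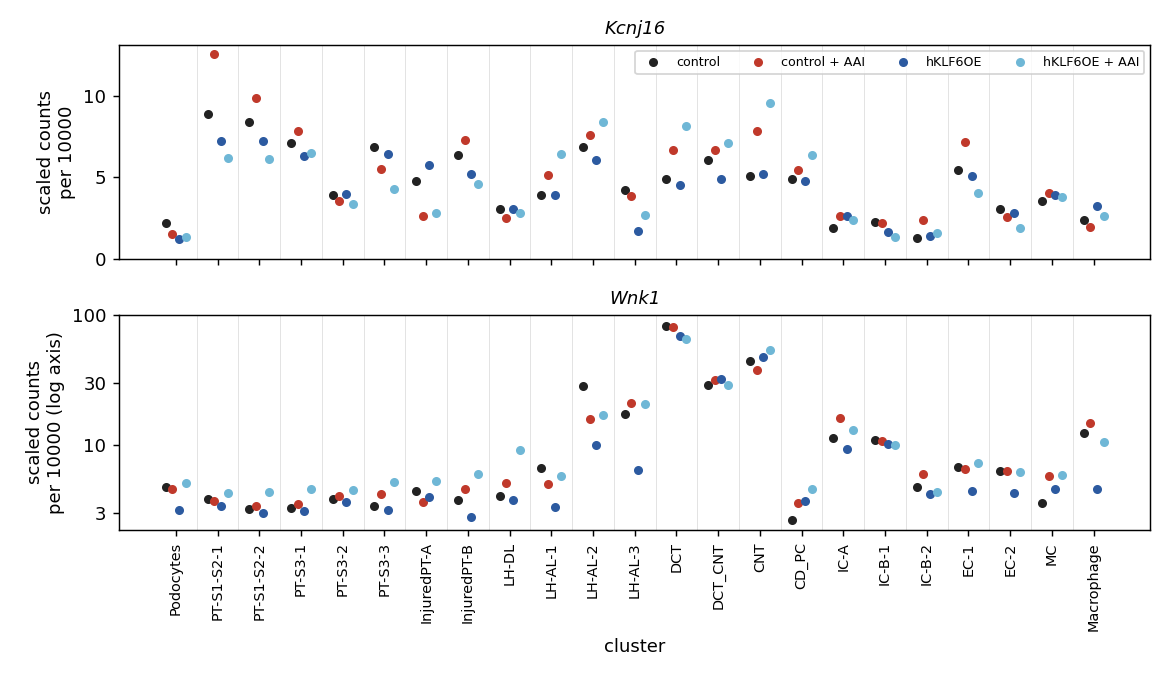
Level of Kcnj16 (top, linear axis) and Wnk1 (bottom, log axis) in each of 23 clusters, in counts scaled to 10000, with 1 point per mouse. Kcnj16 in DCT and CNT is higher in the AAI-treated mice, and in PT-S1-S2-1 lower in hKLF6OE than in control; Wnk1 is highest in DCT and CNT and spans 9.92 to 28.5 in LH-AL-2.

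The injured proximal clusters of the AAI-treated mice were compared with the mean of the 5 normal proximal clusters of the same mouse. In InjuredPT-A, *Kcnj16* was lower, at 2.67 against 7.85 in control with AAI and 2.85 against 5.28 in hKLF6OE with AAI. *Slc12a3* (2.16 against 1.00 and 2.95 against 1.28) and *Wnk4* (0.859 against 0.518 and 0.983 against 0.598) were higher, at levels far under those of DCT. These were 3 of 6 members compared, where 70.2% of 5008 genes passed in both mice, 43.3% higher and 27.0% lower. Markers of most other cell types, and not only distal ones, were higher there too. The 4 DCT markers, *Slc12a3* among them, summed to 4.96 against 2.46 and 6.66 against 2.67, all 4 higher in each mouse and none at 0. The 3 thick ascending limb markers summed to 10.3 against 5.70 and 13.8 against 5.22, with *Cldn16* at 0 in control with AAI. Podocyte markers summed to 0.603 against 0.251 and 0.749 against 0.234. Endothelial markers summed to 0.611 against 0.322 and 0.884 against 0.282. Macrophage markers were lower in sum, at 0.240 against 0.366 and 0.216 against 0.337, and so were proximal markers. The part of transcripts from other cell types in the *Slc12a3* and *Wnk4* values was not tested. With the median subtracted, *Wnk4* no longer passed and *Cul3* passed as lower. In InjuredPT-B, *Wnk1* was higher at 4.58 against 3.79 and 5.95 against 4.56, which was 1 of 6 members, where 36.5% of 4148 genes passed, 23.4% higher and 13.1% lower. *Kcnj16* differed by -0.09 and -0.17 there. With the median subtracted, *Wnk1* no longer passed and *Kcnj16* passed as lower. In InjuredPT-B no member passed at a threshold of 0.5 or against the PT-S3 clusters alone. The clusters were drawn from these same nuclei, so the values describe them.

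Lists of related genes were then read in DCT. Of the 5 other WNK kinases and adaptors, *Wnk2* and *Wnk3* were near 0, with means of 0.00658 and 0.0204. The SPAK-binding scaffolds *Cab39* (1.32) and *Cab39l* (2.16) and the KLHL3 relative *Klhl2* (0.757) could be compared, and none of these 3 passed in any of the 4 comparisons. Among 10 ubiquitin ligase parts with *Nedd4l*, the ligase that acts on the cotransporter and the epithelial sodium channel, 4 were compared in both pairs of AAI and none passed in both. *Nedd4l* was 4.37, *Cops3* 0.847, *Nedd8* 0.714 and *Rbx1* 0.522.

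Phosphatases that act on the pathway, with their inhibitor, gave 1 of 4 genes that passed in both genotypes with AAI, where 13.9% of all genes did. This was *Ppp1r1a*, inhibitor 1 of protein phosphatase 1, at 0.857 in control, 2.85 in control with AAI, 1.11 in hKLF6OE and 1.70 in hKLF6OE with AAI, with differences of 1.05 and 0.35. *Ppp3ca*, the catalytic subunit of calcineurin, had a mean of 5.18, *Ppp1cb* 1.19 and *Ppp3cb* 0.887. Of 5 genes of steroid response, 3 were compared and none passed in both genotypes. The mineralocorticoid receptor *Nr3c2* was 13.1 and the glucocorticoid receptor *Nr3c1* 0.890 in DCT, *Tsc22d3* was 0.604 and *Hsd11b2* 0.252. The other cation chloride cotransporters were scarce in DCT, led by *Slc12a1* at 2.87, *Slc12a7* at 0.657, *Slc12a2* at 0.189 and *Slc12a4* at 0.112, and neither of the 2 compared passed in both genotypes.

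Basolateral transport held 1 of 7 genes that passed with AAI in both genotypes, a share close to the 13.9% of all genes. *Fxyd2*, the gamma subunit of the sodium pump, was 10.4 in control and 7.37 in control with AAI, and 13.4 in hKLF6OE and 6.67 in hKLF6OE with AAI, with differences of -0.44 and -0.90. The sodium pump beta subunit *Atp1b1* (14.1) and the channel *Kcnj1* (4.29) were also measured, and *Atp1b1* differed by 0.24 and 0.16 with AAI. In hKLF6OE against control, no gene of the 6 lists passed in the same direction in both AAI states. None of these lists was tested as a set.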

How the data were processed

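The authors counted reads of 4 single nucleus libraries with Cell Ranger on an mm10 pre-mRNA reference, so introns count, and clustered nuclei with Seurat. Nuclei were filtered on genes detected and mitochondrial share, and doublet removal is not described for these libraries. The deposited signal values are means over the nuclei of 1 cluster and 1 mouse of counts scaled to 10000, on a linear scale. Each of 92 columns sums to 10000, and depth and numbers of nuclei are unknown. Of 19632 gene rows, 23 with date-like names were left out. Cluster names follow the order of the study's marker table and were checked on markers, less surely for the smaller clusters.

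Differences were taken on log2(level + 1), with a minimum larger level of 0.5 and a threshold of 0.2, with Python 3.11.15 and pandas 2.3.3. The calculation was tested on simulated data. Named genes were the 9 members, up to 4 genes of each list by mean DCT level, list genes that passed in both pairs of mice, and the genes most like each member (5 for *Slc12a3*, 3 for others). The members and lists were chosen with earlier results of these data known. Alternatives were another pseudocount, filter, threshold, centring, cluster and reference. Promoters are RefSeq's and gene spans GENCODE's. The result of 1 list gene is not reported here.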

Additional observations from a re-analysis of the deposited data

Results flagged for a closer look

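In 20 of 146 pairs of member and cluster compared in both genotypes (13.7%, against 10.1% over all genes), AAI went with a higher level in one genotype and a lower level in the other, each past 0.2 on the log2 scale. The 4 that fall in the 5 clusters with the highest means of the gene are given here, as the difference with AAI in hKLF6OE minus that in control. None of these differences was tested, since each rests on 4 single mice.

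*Wnk1* in LH-AL-2 gave 1.54, from 28.5 to 15.7 with AAI in control and from 9.92 to 17.02 in hKLF6OE. *Klhl3* in IC-A gave 0.52, from 3.33 to 2.69 and from 1.85 to 2.48. *Kcnj16* in PT-S1-S2-2 gave -0.42, from 8.39 to 9.82 and from 7.22 to 6.09. *Slc12a3* in macrophages gave 2.94, from 6.33 to 2.36 and from 1.54 to 7.90. In control, control with AAI, hKLF6OE and hKLF6OE with AAI, the DCT markers, *Slc12a3* among them, summed to 13.5, 6.28, 7.74 and 12.1 in macrophages. In IC-A these sums were 16.99, 16.94, 5.96 and 7.16. In macrophages of the hKLF6OE pair, the difference with AAI was larger for *Slc12a3* than for the sum that holds it. The other DCT markers together were thus lower with AAI there, while *Slc12a3* was higher. The part of other distal transcripts in the *Slc12a3* and *Klhl3* values was not tested. In the macrophage columns between 38.3% and 63.4% of genes were at 0, against 25.4% to 28.1% in DCT.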

How the results depend on the processing

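No paired analysis was possible, because the 4 libraries come from 4 different mice, 1 per condition. The pairs of mice by genotype and by AAI state are those described above, with no model fitted. A pseudocount of 0.1, a minimum level of 2 and no filter left every count of members within 1.5 times of the reported one, in DCT and in the injured clusters. The share of all genes that passed moved more, with AAI in control from 30.0% to 57.1%, 45.3% and 9.64% under these settings, and to 2.71% at a threshold of 0.5. For hKLF6OE in both states it moved from 2.81% to 10.1%, 5.91%, 0.791% and 0.223%. A threshold of 0.5 left 1 member with AAI in control (*Klhl3*), 1 in hKLF6OE (*Kcnj16*), and 0 for hKLF6OE in either state, for both joint counts and for InjuredPT-B. Centring on the median of all genes left 2 members for hKLF6OE without AAI and 1, *Wnk1*, in both states, and exchanged members in both injured clusters. *Stk39* no longer passed there (-0.17), nor with AAI in hKLF6OE (0.19). In DCT_CNT in place of DCT the counts were 1 with AAI in control, 1 in both genotypes (*Klhl3* in each case), 2 for hKLF6OE without AAI and 0 in both states. There, *Wnk1* (0.13), *Klhl3* (0.014) and *Cul3* (0.0090) turned in sign for hKLF6OE without AAI, and *Wnk4*, which had not passed, stood at 0.12 without and 0.11 with AAI. In the unweighted mean of 23 clusters the counts were 1 with AAI in control and 1 with AAI in hKLF6OE. For hKLF6OE against control they were 2 without and 0 with AAI, and both joint counts were 0. In hKLF6OE against control, both with AAI, *Wnk1* (0.022) and *Kcnj16* (-0.16) there had the opposite sign to that in DCT. With PT-S3 clusters as the reference, 0 of 4 members passed in InjuredPT-B. The cause of these changes was not tested.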
